A study of Papio anubis with 60 samples.

Results

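The acetylation of lysine 27 of histone H3 (H3K27ac) was compared between embryonic stem cells (ESC) and induced pluripotent stem cells (iPSC) of the olive baboon, Papio anubis, over the autosomes. All peaks of both H3K27ac lists that lay on chromosomes 1 to 20 were taken, 589758 in all. They were 376101 of the 387478 ESC peaks and 213657 of the 221803 iPSC peaks, out of 2116963 peaks in the 8 lists of the series. The ESC lines were B4 and B15, and the iPSC lines, made by reprogramming, were 160-2 and M14939#3. All were grown on feeder cells in PluriSTEM medium, and no further treatment is named for any of them. Each line gave 3 replicate H3K27ac libraries of 50000 cells, cut with micrococcal nuclease (MNase), so that each cell type had 6 libraries. One peak list per cell type was analysed, with no values for single libraries. The 2 lists are therefore compared without replicates, and since each line belongs to 1 cell type, cell type and line cannot be told apart. What feeder cells contributed to either list was not tested, and the cell type could not be checked against marker genes because the peaks were not joined to genes.

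H3K27ac is placed by acetyltransferases such as p300 and CBP, loosens the packing of nucleosomes, and is found at active promoters and active enhancers. Trimethylation of lysine 4 (H3K4me3) marks promoters, so H3K27ac inside H3K4me3 is commonly read as promoter-type and H3K27ac away from it as enhancer-type. H3K27me3 is laid down by Polycomb complexes on the same lysine that carries the acetyl group, and H3K9me3 marks heterochromatin.

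ESC had more H3K27ac peaks than iPSC on all 20 autosomes. The lists covered 102 Mb in ESC and 54.4 Mb in iPSC, which was 3.95% and 2.10% of the 2594 Mb of autosomal sequence. Density was 145 peaks per Mb for ESC against 82.4 for iPSC, giving a ratio of 1.76. Over the 20 autosomes the ratio was 1.79 ± 0.137 (SD), from 1.64 on chromosome 4 to 2.18 on chromosome 19. Chromosome 10 was the densest in both lists, at 196 and 101 peaks per Mb. Chromosome 19 ranked differently: it had 158 peaks per Mb in ESC, above the mean of 147.3 ± 16.7 over autosomes, and 72.6 in iPSC, the lowest of all iPSC values and below the mean of 82.2 ± 7.10. Chromosome 20 also stood high in the ratio, at 2.06. The ratio rose with the threshold: among peaks with a −log10 q of at least 5, the authors' measure of how surely a peak stands above background, it was 2.04, and at 10 or more it was 2.54. The depth behind either list is unknown.

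**Figure D1:**
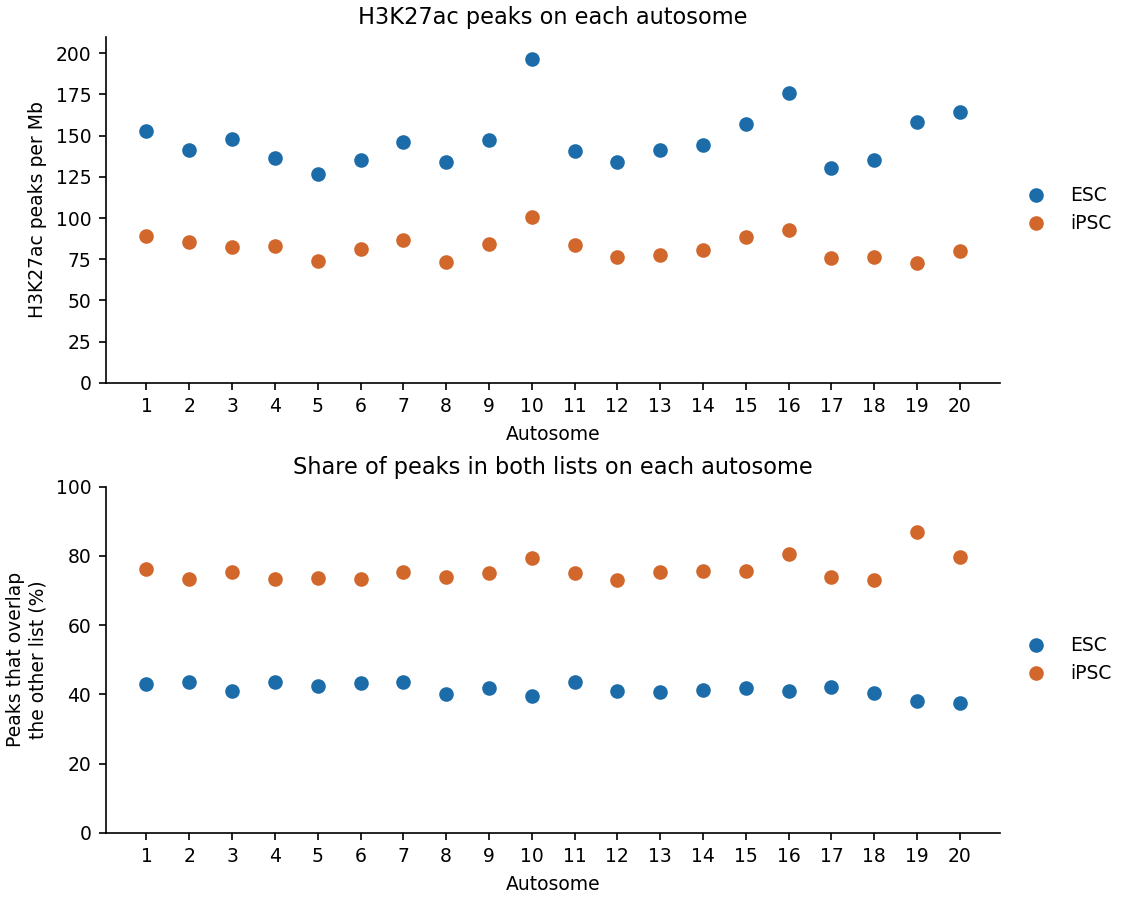
Points give, for each of the 20 autosomes, H3K27ac peaks per Mb (upper panel) and the percent of peaks that overlap a peak of the other list by at least 1 bp (lower panel) in ESC and iPSC. ESC values lie above iPSC values on every autosome in the upper panel, and the ESC and iPSC shares do not overlap in the lower panel, where chromosome 19 has the highest iPSC share, 87.0%.

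Peaks were short, of nucleosome scale, and ESC peaks were slightly wider. Widths had a floor: the narrowest peaks were 145 bp in ESC and 144 bp in iPSC, beside 5th percentiles of 146 and 144 bp. The short width is thus in part a limit of the lists, and what set it is not known. ESC peaks had a median width of 216 bp, and iPSC peaks one of 206 bp. Over autosomes the medians averaged 218 ± 13.0 bp and 207 ± 9.46 bp (SD, n = 20), so that the difference of the means was smaller than the SD among the ESC autosomes, yet the ESC median was the larger on each of the 20. The upper ends differed more. Peaks of at least 500 bp made up 7.71% of ESC peaks (95% Wilson interval 7.62 to 7.79) and 5.67% of iPSC peaks, and peaks of at least 1000 bp 0.961% (0.930 to 0.993) and 0.617%. To compare lists of the same size, the ESC list was also shortened to its 213657 peaks of highest −log10 q, all at 5.78 or above. In this shortened list the median width was 225 bp and 11.9% of the peaks reached 500 bp. Among peaks with a −log10 q of at least 10 the medians of both cell types were the same.

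The 2 widest peaks of each list lay on peaks of the other list. The widest of ESC, 4430 bp at chr14:59816825-59821254, held 5 iPSC summits, and iPSC peaks covered 87.8% of it. The second, 4327 bp at chr4:32316909-32321235, lay over the widest of iPSC, 4024 bp at chr4:32317280-32321303. That pair was wholly inside H3K4me3 of its own cell type, and H3K27me3 covered 48.3% of the ESC peak in ESC and 89.8% of the iPSC peak in iPSC. The other wide iPSC peak, 3443 bp at chr4:30713530-30716972, corresponded to 2 ESC summits, with ESC peaks over 92.7% of it.

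Summits stood closer together in ESC, but not when both lists held the same number. Neighbouring ESC summits were a median of 3036 bp apart and iPSC summits 5179 bp. The medians of single autosomes averaged 3032 ± 475 and 5192 ± 608 bp (SD, n = 20). In the shortened ESC list it was 5349 bp, slightly above that of iPSC. Neighbours lay within 1 kb in 22.6% of ESC pairs (95% Wilson interval 22.5 to 22.7), 17.4% of iPSC pairs (17.3 to 17.6) and 15.8% of pairs in the shortened list (15.6 to 15.9). At equal number, then, iPSC had the larger share of close neighbours. The most frequent spacing was 400 to 420 bp in ESC, 420 to 440 bp in iPSC and 380 to 400 bp in the shortened list. Classes near these held almost as many pairs, so no difference between the cell types is read from them. The smallest gap between 2 peaks was 102 bp in either list. Spacing was uneven in both: the mean was 2.27 times the median in ESC and 2.34 times in iPSC.

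**Figure D2:**
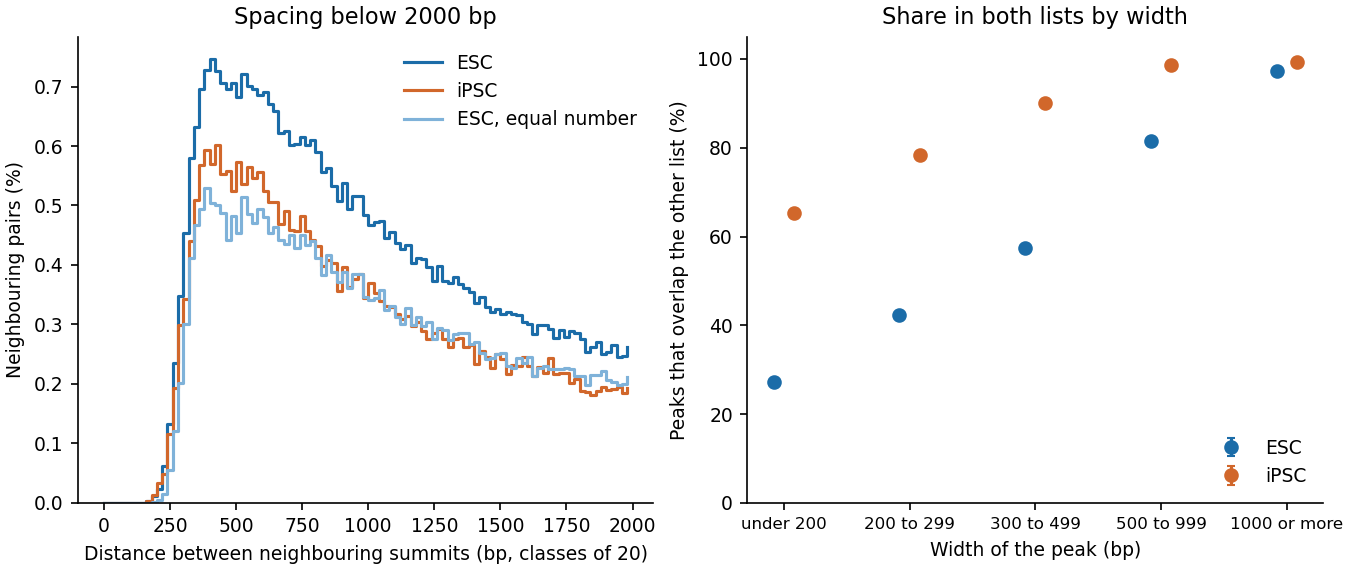
Left, the percent of neighbouring summit pairs in classes of 20 bp of distance, for ESC, iPSC and the ESC list shortened to the iPSC number; all 3 curves rise steeply above 250 bp and the ESC curve is the highest. Right, the percent of peaks that overlap the other list by peak width, with 95% Wilson intervals (smaller than the points), rising from 27.2% to 97.3% in ESC and from 65.2% to 99.4% in iPSC.

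The autosomes were cut into 25926 bins of 100 kb, and H3K27ac was spread over nearly all of them. A bin held 14.5 ± 10.1 ESC summits and 8.24 ± 6.66 iPSC summits (mean ± SD over bins). No ESC summit was found in 1.08% of the bins (95% Wilson interval 0.958 to 1.21) and no iPSC summit in 4.08% (3.84 to 4.32). The shortened ESC list left 2.69% of bins empty (2.50 to 2.90), fewer than the iPSC list of the same length. In 820 bins the iPSC list alone was empty, in 42 the ESC list alone, and in 237 both were. The densest 10% of bins held 25.6% of the ESC summits and 28.2% of the iPSC summits, and 1708 of the 2593 such bins (65.9%) were in this class in both cell types. Across bins the summit numbers of ESC and iPSC had a Spearman's rho of 0.821 and a Pearson's r of 0.839. These describe 25926 neighbouring bins of the same chromosomes, which are not independent. Within a cell type, H3K27ac and H3K4me3 summit numbers had a rho of 0.541 in ESC and 0.559 in iPSC, lower than between cell types for either mark (0.889 for H3K4me3).

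The densest places were rich in both lists. The ESC maximum was 91 summits in the bin at 1200001 to 1300000 of chromosome 1, where iPSC had 35, and only 1 of those 35 was absent from the ESC list. The next ESC bins were at 4800001 to 4900000 of chromosome 19, with 89 and 43 summits, and at 34500001 to 34600000 of chromosome 3, with 84 and 34. The iPSC maximum was 59 summits at 43600001 to 43700000 of chromosome 3, where ESC had 75. It was followed by 58 at 134900001 to 135000000 of chromosome 5 (ESC 60) and 57 at 17000001 to 17100000 of chromosome 10 (ESC 72). H3K4me3 covered 10.3% of the last bin in ESC and 16.2% in iPSC.

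After scaling each list to its own mean, most bins differed by less than 2-fold. Of 24594 bins with at least 5 summits in both lists together, 2638 (10.7%) were at least 2-fold higher in ESC and 824 (3.35%) at least 2-fold higher in iPSC. Small numbers fill these classes: among the 12507 bins with at least 20 summits, 622 (4.97%) and 194 (1.55%) passed. Of the 2638 bins higher in ESC, 649 followed a bin of the same class, and of the 824 higher in iPSC, a smaller class, 43 did. The bins higher in ESC had a mean of 12.8 ESC and 2.40 iPSC summits, and those higher in iPSC 6.82 and 8.96. Among the bins higher in ESC with at least 50 ESC summits, the 3 with the largest ratio held 55, 50 and 51 ESC summits and 8, 8 and 9 iPSC summits, at 2500001 to 2600000 and 7600001 to 7700000 of chromosome 15 and 3500001 to 3600000 of chromosome 5. H3K4me3 cover in these bins differed far less, being 6.44%, 7.27% and 9.60% in ESC and 6.50%, 5.88% and 8.73% in iPSC. No bin of the iPSC class reached 50 iPSC summits.

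A large part of the H3K27ac summits lay inside H3K4me3 peaks of the same cell type, and a larger part in iPSC than in ESC. H3K4me3 covered 5.20% of the autosomes in ESC and 5.42% in iPSC. It held 38.9% of the ESC summits (95% Wilson interval 38.8 to 39.1; SD over autosomes 3.01) and 49.4% of the iPSC summits (49.2 to 49.6; SD 3.45). Of the shortened ESC list, which lacks the weakest peaks, 47.3% (47.1 to 47.5) lay inside H3K4me3, so that a difference of 2.09 points was left. A further 12.1% of ESC and 11.3% of iPSC summits were within 1 kb of H3K4me3, 35.3% and 29.1% between 1 and 10 kb, and 13.7% and 10.1% between 10 and 100 kb. Beyond 100 kb there were 117 ESC and 45 iPSC summits. For summits outside H3K4me3 the median distance to it was 3645 bp (ESC) or 3285 bp (iPSC).

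Per Mb of available sequence, the density fell from H3K4me3 outwards, with a dip at its edge. There were 1084 ESC and 750 iPSC summits per Mb inside H3K4me3. In the first 500 bp outside, the density was 97.7 and 56.8 per Mb, lower than the 129 and 63.8 per Mb between 500 and 1000 bp. Peaks of a list lay at least 102 bp apart. Whether this and the peak width limited the value at the edge was not tested. Further out the density declined through 86.3 and 38.9 per Mb at 5 to 10 kb to 22.1 and 10.1 per Mb beyond 100 kb. Peaks inside H3K4me3 were also wider and stronger: median widths inside were 259 bp for ESC and 235 bp for iPSC, against 197 and 186 bp at 1 to 10 kb. Their median fold enrichment over background, the authors' value for single peaks, was 3.21 and 3.11 inside and 2.78 and 2.70 at 1 to 10 kb.

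**Figure D3:**
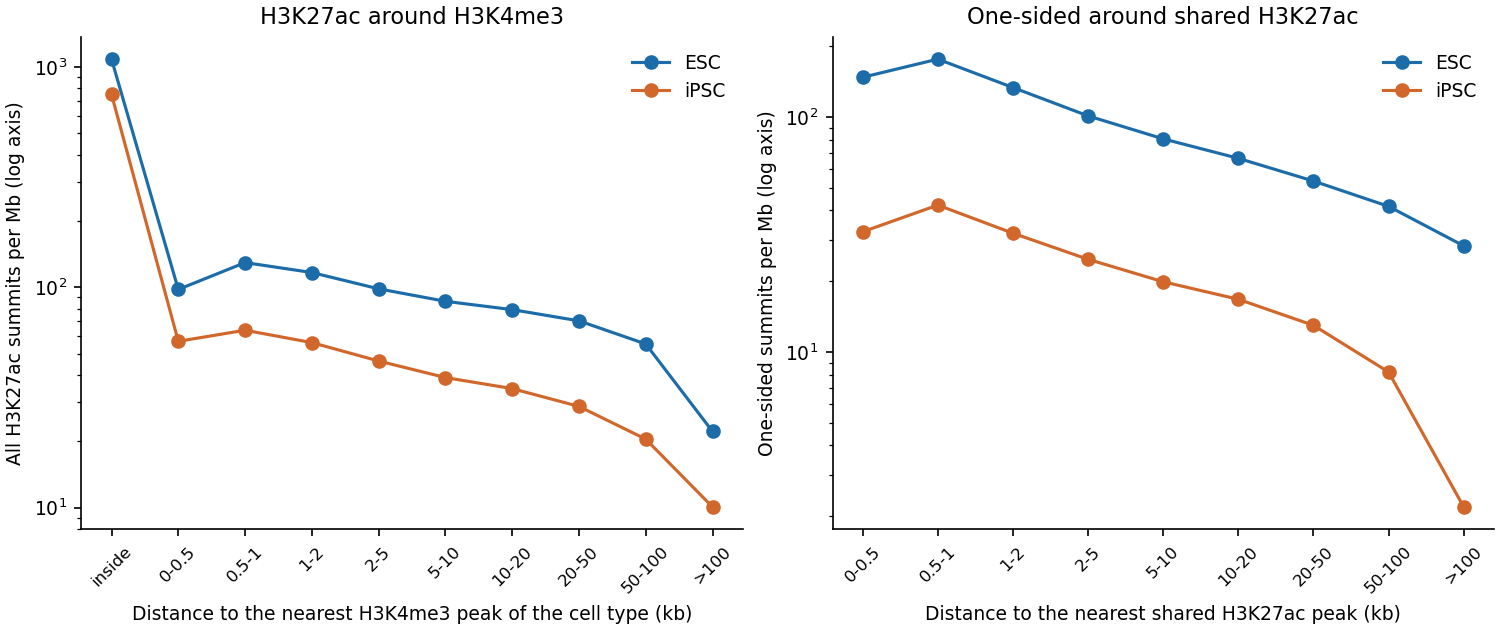
Left, H3K27ac summits per Mb of sequence (log axis) inside H3K4me3 peaks of the same cell type and in classes of distance from them. Right, one-sided H3K27ac summits per Mb (log axis) by distance from the nearest shared peak. In both panels the density declines beyond 1 kb; in the first 0.5 kb of the right panel it is in part limited by the spacing and width of the peaks themselves.

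ESC had more summits than iPSC at all levels of H3K4me3, and the ratio was highest where H3K4me3 was scarcest. Bins were ranked by H3K4me3 summits, averaged over both cell types, into 5 equal groups. In the group with the least H3K4me3 the bins had 7.68 ± 4.70 ESC and 3.95 ± 2.98 iPSC summits, a ratio of 1.94, and in the group with the most 23.8 ± 12.5 and 14.0 ± 9.09, a ratio of 1.69. The ratios of the 3 groups between were 1.80, 1.75 and 1.77, so there was no steady order among them. Of the ESC peaks, 65.7% had no iPSC counterpart in the first group and 53.9% in the last. Of the iPSC peaks, 32.8% and 19.4% had no ESC counterpart.

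A peak is called shared where it overlaps a peak of the other list by at least 1 bp, and one-sided otherwise. By this rule 218729 ESC peaks (58.2%) and 52806 iPSC peaks (24.7%) were one-sided. The shared part was 41.8% for ESC and 75.3% for iPSC, with an SD of 1.81 and 3.42 points over the 20 autosomes. These shares depend on the unlike lengths of the lists. With the ESC list shortened to the iPSC number, 53.8% of ESC and 55.7% of iPSC peaks were shared, so that a difference of 1.94 points was left. Chromosome 19 held the highest iPSC share, 87.0%, beside a low ESC share, 38.1%. Chromosome 20 had the lowest ESC share, 37.4%. Where peaks were shared they coincided closely: the median distance between the paired summits was 20 bp from ESC and 21 bp from iPSC, and 74.8% of shared ESC summits had an iPSC summit within 50 bp. Of the shared iPSC peaks, 98.8% met exactly 1 ESC peak. Among 152273 ESC peaks with exactly 1 iPSC partner, the ESC peak was the wider in 66.8%, with medians of 262 and 222 bp, and its −log10 q ranked with that of its partner at a Spearman's rho of 0.545, a description over pairs that share their sequence.

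Shared peaks were wider and stronger than one-sided peaks in both lists. In ESC the shared peaks had a median width of 268 bp and the one-sided ones 191 bp, while in iPSC these were 222 and 172 bp; the median fold was 3.27 and 2.77 in ESC and 2.97 and 2.72 in iPSC. Shared peaks were thus 41.8% of the ESC list and 52.0% of its covered length. Among peaks of at least 1000 bp, 97.3% of those of ESC (96.7 to 97.7) and 99.4% of those of iPSC (98.8 to 99.7) were shared. A wider peak also has more room to meet another.

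H3K4me3 went with sharing in each of 10 groups of peak strength. It overlapped 55.4% of the shared and 29.5% of the one-sided peaks of ESC, and 57.2% and 32.5% of those of iPSC. When each list was ranked by −log10 q into 10 equal groups, the shared percent was higher for peaks with H3K4me3 than for those without it in all 10 groups of both lists. Width was not held equal in these groups. The median width of ESC peaks was 275 bp with H3K4me3 in both cell types and 193 bp with it in neither. A wider peak has more room to meet both H3K4me3 and the other list. In the weakest ESC group it was 26.8% (25.9 to 27.7) with H3K4me3 and 17.4% (17.0 to 17.8) without, and in the strongest 91.3% (91.0 to 91.6) and 73.0% (72.0 to 73.9). In iPSC the weakest group gave 66.3% (65.2 to 67.4) and 54.0% (53.1 to 54.8), and the strongest 98.4% (98.2 to 98.6) and 90.5% (89.5 to 91.5). Sharing also differed with the H3K4me3 of the other cell type. ESC peaks with H3K4me3 in iPSC alone were shared in 56.8% (56.2 to 57.5), and those with H3K4me3 in ESC alone in 32.9% (32.4 to 33.4). For iPSC peaks the same order held, 87.4% with H3K4me3 in ESC alone and 66.6% with H3K4me3 in iPSC alone. ESC peaks with H3K4me3 in neither cell type, 53.5% of the list, were shared in 28.3% (28.1 to 28.5).

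**Figure D4:**
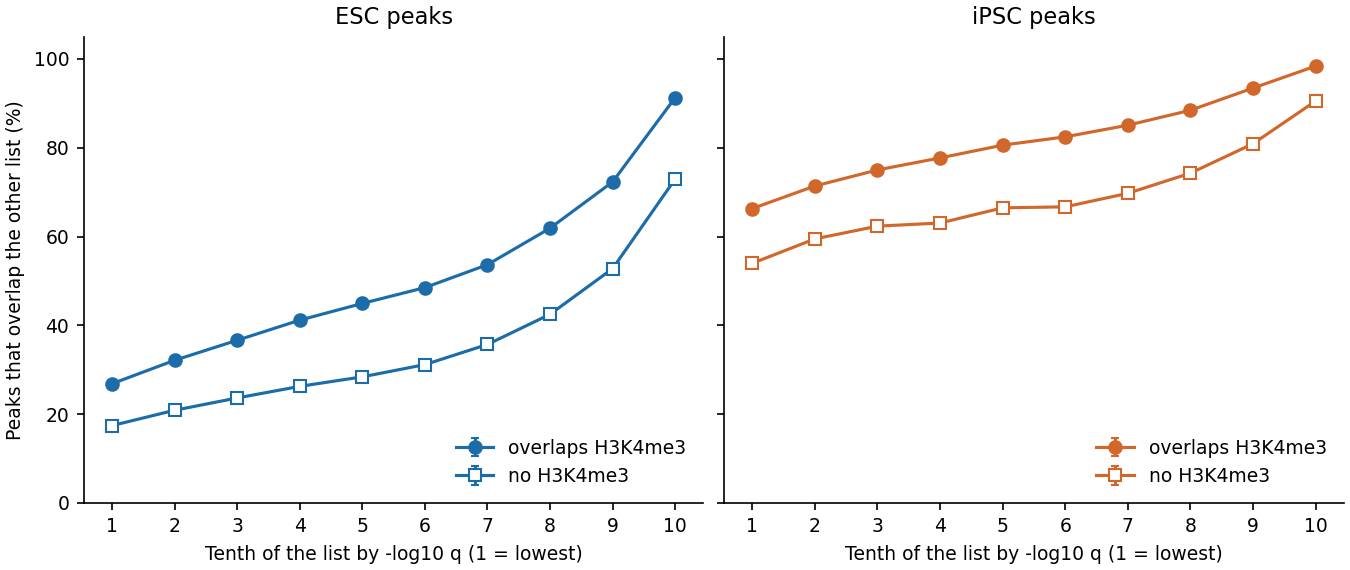
Percent of H3K27ac peaks that overlap the other list, for 10 equal groups of each list ranked by the authors' −log10 q, split by overlap with H3K4me3 of the same cell type; error bars are 95% Wilson intervals. In both cell types the line for peaks with H3K4me3 lies above the line for peaks without it in every group.

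In the full lists, strong peaks were one-sided less often in iPSC than in ESC, and few of either list had no counterpart within 10 kb. Strong iPSC peaks were matched against 376101 ESC peaks, and strong ESC peaks against only 213657 iPSC peaks. The order of these shares thus depends on the unlike lengths of the lists, and no values at equal number are given for it. Of ESC peaks with a −log10 q of at least 10, 26.4% (26.1 to 26.7) overlapped no iPSC peak of any strength, and 4321 of 81465 (5.30%) had none within 10 kb. Of the iPSC peaks at that level, 4.78% (4.55 to 5.02) overlapped no ESC peak, and 150 of 32095 (0.467%) had none within 10 kb. At 20 or more, 61 of 12726 ESC and 8 of 4727 iPSC peaks had none within 10 kb. All 8 of those iPSC peaks overlapped H3K4me3 in iPSC, as did 57.2% of all shared and 32.5% of all one-sided iPSC peaks, and 6 of the 8 overlapped H3K9me3 in ESC, as did 7.41% and 8.30%. Of the 61 ESC peaks, 46 overlapped H3K4me3 in ESC and 13 H3K9me3 in iPSC. The one-sided ESC peak with the highest −log10 q, 53.6, spanned 678 bp at chr19:8456323-8457000 and had a fold of 9.04. It lay wholly in ESC H3K4me3, no iPSC H3K27ac peak was found within 42343 bp, and H3K9me3 covered 96.2% of it in iPSC and none in ESC. The second, at chr19:4800412-4800879 (42.4), had an iPSC peak 928 bp away and no other mark in either cell type. The strongest one-sided iPSC peaks carried several marks at once. That at chr6:108510524-108510947 had a −log10 q of 119, with H3K4me3 over 91.7%, H3K27me3 over 98.6% and H3K9me3 over 100% of it in iPSC. In ESC the same 424 bp had H3K4me3 over 33.0%, H3K27me3 over 97.9% and H3K9me3 over 94.1%. The second, at chr8:101366059-101367326 (87.2), had a fold of 4.82. It was likewise covered by H3K27me3 and H3K9me3, 99.4% and 100% in iPSC and 95.7% and 82.1% in ESC. What lies behind this overlap of marks in both cell types was not tested.

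In the full lists, one-sided peaks lay at much the same distance from shared ones in ESC and iPSC. The median gap from a one-sided peak to the nearest shared peak was 4398 bp for ESC and 4483 bp for iPSC, a difference smaller than the SD over autosomes (626 and 648 bp). The order turned in a list restricted to peaks with a −log10 q of at least 10, where the ESC median was larger by 1917 bp. The gap was at most 1 kb for 20.7% and 19.7%, and at most 10 kb for 70.9% and 71.0%. Shared peaks lay closer to each other, with median gaps of 2431 bp (ESC) and 2271 bp (iPSC). One-sided ESC peaks also lay closer to each other than to shared peaks, with a median gap of 2605 bp. In iPSC the 25th percentile of the gap was 4268 bp between one-sided peaks and 1388 bp from one-sided to shared peaks. These gaps depend on the numbers in each class, as 58.2% of ESC and 24.7% of iPSC peaks were one-sided. Per Mb of sequence, one-sided ESC summits fell from 176 per Mb at 0.5 to 1 kb from a shared peak to 28.3 per Mb beyond 100 kb. One-sided iPSC summits fell from 42.1 to 2.19 per Mb over the same classes. The lower values in the first 0.5 kb, 147 and 32.4 per Mb, are in part fixed by construction, since peaks of a list lie at least 102 bp apart and a summit lies inside its own peak. One-sided iPSC peaks also lay close to ESC peaks that they did not overlap: 36.2% (35.7 to 36.6) had one within 1 kb, against 24.5% (24.3 to 24.6) of one-sided ESC peaks for the shorter iPSC list.

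One-sided peaks had one-sided neighbours more often than shared peaks did. In ESC, 61.6% of the neighbours of a one-sided peak were one-sided, against 53.4% of the neighbours of a shared peak and 58.2% of all peaks. In iPSC the values were 29.5%, 23.2% and 24.7%. Single one-sided peaks with shared peaks on both sides made up 16.0% of the one-sided ESC peaks and 50.3% of the one-sided iPSC peaks. Uninterrupted runs reached 95 peaks in ESC and 9 in iPSC. The ESC list had 1615 runs of 10 or more, holding 9.78% of its one-sided peaks, and the iPSC list had none. With lists of equal number, the longest runs were 50 in ESC and 19 in iPSC, and runs of 10 or more numbered 230 and 121.

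Taken as a group, the long ESC runs had more H3K9me3 and H3K27me3 in iPSC than in ESC. The 106 runs of at least 20 peaks held 3167 peaks over 32.7 Mb on 18 autosomes. H3K9me3 covered 14.9% of their span in ESC and 45.4% in iPSC, and H3K27me3 3.11% and 23.1%. In 45 of these runs iPSC exceeded ESC by 20 points or more of H3K9me3 cover, and in 2 the reverse was seen. Of the 1509 runs of 10 to 19 peaks, 47 had H3K9me3 higher by as much in iPSC and 5 in ESC, while the cover of all of them was 9.71% in ESC and 9.24% in iPSC. Among shorter runs the larger number was that of ESC, with 47 against 54 of 10247 runs of 5 to 9 peaks, 152 against 794 of 37256 runs of 2 to 4, and 408 against 1915 of 34980 single peaks. The median span was 0.188 kb for single peaks and 172 kb for runs of at least 20. A difference of 20 points is therefore not a like measure across run lengths. Over all autosomes H3K9me3 covered 8.46% in ESC and 6.96% in iPSC, and H3K27me3 2.08% and 3.47%. The longest, 95 peaks in 281 kb at chr10:89190670-89471209, had H3K9me3 over 14.5% in ESC and 84.6% in iPSC, H3K27me3 over 2.12% and 66.0%, and H3K4me3 over 4.31% and 1.33%. The next were 87 peaks at chr8:134314190-135310457, with H3K9me3 over 13.3% and 71.2%, and 69 peaks at chr6:3246532-4433451, with 15.1% and 81.1%. The longest iPSC runs, 9 peaks each on chromosomes 14, 17 and 4, spanned 53.0 to 111 kb and held 5, 4 and 5 one-sided ESC peaks. H3K9me3 there covered 2.75% to 5.50% in iPSC and 2.83% to 8.75% in ESC.

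Summit numbers differed by more in bins chosen by a difference in H3K9me3 or H3K27me3 than over all bins. In the 329 bins of 100 kb where H3K9me3 cover was at least 20 points higher in iPSC, found on 14 autosomes, ESC had 8.78 ± 7.42 and iPSC 1.12 ± 1.87 H3K27ac summits per bin (SD over bins). The ratio of the sums was 7.85, against 1.75 in the 25565 bins within 20 points. Of these 329 bins, 182 had no iPSC summit and 7 no ESC summit, and 89.6% of their ESC peaks were one-sided. Without chromosome 20, which held 60 of them, the ratio was 7.92. H3K4me3 summits in these bins numbered 10.03 per ESC bin and 4.81 per iPSC bin, or 2.09 to 1. Over all bins the ratios were 1.76 for H3K27ac and 0.992 for H3K4me3. The H3K27ac ratio divided by the H3K4me3 ratio was 3.76 in these bins and 1.77 over all bins. With the shortened ESC list, whose mean over all bins was 8.24 summits as in iPSC, the H3K27ac ratio was 3.96. Where H3K9me3 was at least 20 points higher in ESC, in 32 bins, the ratio was also above the rest, at 3.38. In the 343 bins with H3K27me3 at least 20 points higher in iPSC it was 8.11, and in the 209 bins common to both sets it was 10.9. Outside these 209 it was 4.53 in the 120 bins with H3K9me3 alone higher and 3.87 in the 134 with H3K27me3 alone higher, of which 84 had no ESC summit and 96 no iPSC summit. In 46 bins with H3K27me3 at least 20 points higher in ESC it was 2.11. For H3K4me3 the order of the ratios was that of the mark: the ratio was 1.30 in 138 bins with H3K4me3 cover at least 5 points higher in iPSC and 3.93 in 68 bins with it higher in ESC.

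**Figure D5:**
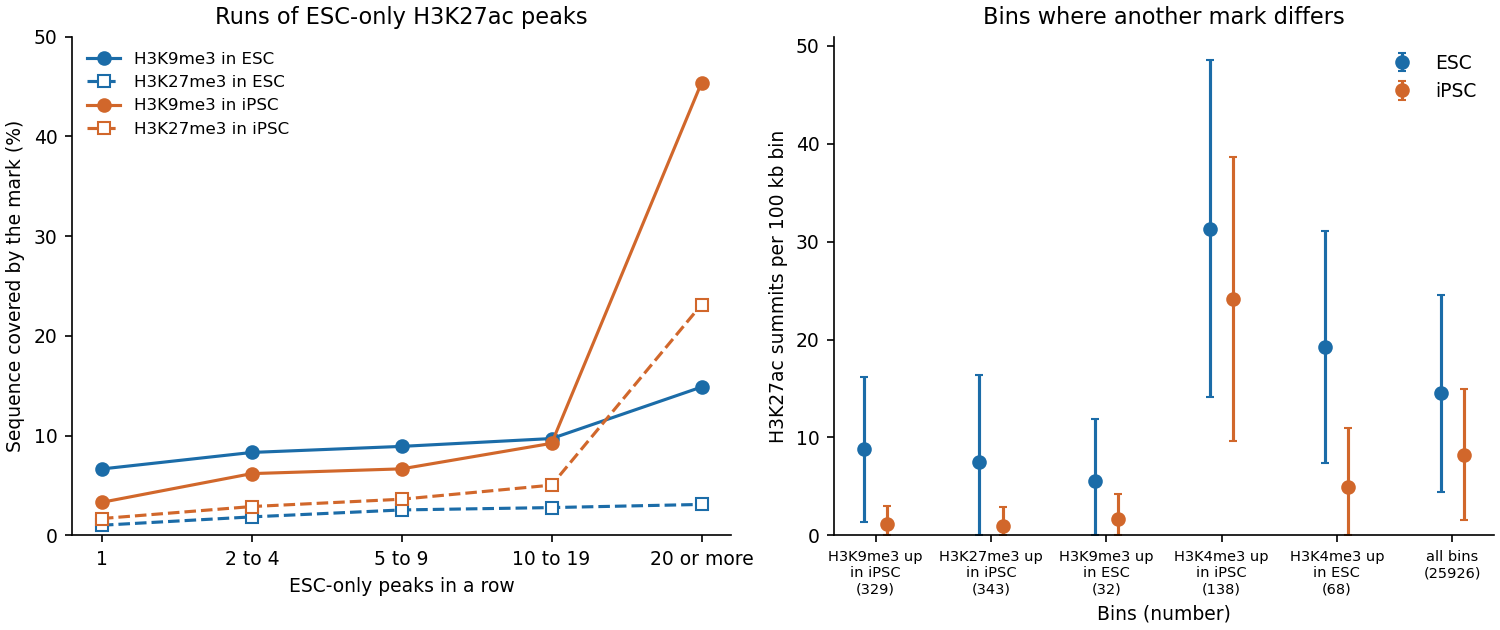
Left, percent of sequence covered by H3K9me3 and H3K27me3 in ESC and iPSC over runs of ESC-only H3K27ac peaks, by the number of peaks in the run. Right, mean H3K27ac summits per 100 kb bin (bars: SD over bins, cut at 0) for bins where another mark differs between the cell types by at least 20 points of cover (H3K9me3, H3K27me3) or 5 points (H3K4me3), with the number of bins; iPSC means lie near 1 where H3K9me3 or H3K27me3 is higher in iPSC.

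Over the whole ESC list, the repressive marks of iPSC separated one-sided from shared peaks little. H3K9me3 of iPSC overlapped 5.58% of the one-sided and 5.10% of the shared ESC peaks, an order that turned among peaks with a −log10 q of at least 5 or 10, and H3K27me3 of iPSC overlapped 3.39% and 5.73%. The values rose with isolation. Among the 45180 one-sided ESC peaks within 1 kb of a shared peak, 3.63% (3.46 to 3.81) overlapped iPSC H3K9me3 and 2.55% (2.41 to 2.70) iPSC H3K27me3. Among the 6444 that lay over 50 kb away, 1611 overlapped iPSC H3K9me3 (95% Wilson interval 24.0% to 26.1%) and 17.8% iPSC H3K27me3 (16.9 to 18.8). Those isolated peaks had a median width of 187 bp and a median fold of 2.78, close to the 191 bp and 2.77 of all one-sided ESC peaks. In iPSC, 1087 one-sided peaks lay over 50 kb from a shared one, and 11.2% (9.48 to 13.2) of them overlapped ESC H3K9me3, against 6.45% (5.99 to 6.94) within 1 kb.

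Stretches without H3K27ac were taken only where they held a peak of another mark at least every 1 Mb. Of the 2 longest such stretches in each list, those on chromosomes 19 and 8 were dense in H3K9me3 and that on chromosome 5 was not. The longest of both lists was on chromosome 19, from 20670009 to 22603341 in ESC (1933 kb) and from 20669982 to 22800848 in iPSC (2131 kb), with H3K9me3 over 73.3% and 69.0% of it in the respective cell type. The part that only iPSC left empty held 8 ESC summits. The second in ESC, 1262 kb at chr8:42195118-43457551, held 1 iPSC summit and had H3K9me3 over 79.3% in both cell types. The second in iPSC, 1366 kb at chr5:91093979-92460085 held 18 ESC summits, all one-sided, and H3K9me3 covered 5.69% in ESC and 7.56% in iPSC.

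H3K4me3, measured in the same lines, had lists of much the same length in both cell types, unlike H3K27ac. Its lists had 305565 peaks in ESC and 308062 in iPSC on the autosomes, median widths of 276 and 290 bp and median spacings of 2948 and 2828 bp. The other list held 71.2% of the ESC and 69.7% of the iPSC H3K4me3 peaks. For H3K27ac the shares were 41.8% and 75.3% in the full lists, which are of unlike length, and 53.8% and 55.7% at equal number. The lists of equal number, with 213657 peaks each, are shorter than the H3K4me3 lists. The shares of the 2 marks are therefore not like measures, and no order between the marks is read from them. In the weakest of 10 groups by −log10 q, 44.7% and 42.4% of H3K4me3 peaks were shared, and in the strongest 99.7% and 99.8%. The corresponding H3K27ac values, from the full lists of unlike length, were 19.8% and 58.3% in the weakest and 87.1% and 97.2% in the strongest.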

How the data were processed

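The labels give 60 libraries, of which 12 are H3K27ac libraries, 6 per cell type. Of each mark, 1 deposited list per cell type was read, which makes 8 peak lists. The submitters' processing notes name MACS2, SAMtools 1.10, Picard and deepTools. Aligner, build, peak thresholds and the pooling of libraries are each "not given in the sources used here". Each deposited list gives a fold enrichment (a ratio over background) and the −log10 of the q-value of every peak. The 8 columns of −log10 p were left aside. Narrow lists also give the summit offset. Depth is unknown, as the values are peaks and not reads.

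Overlap needed at least 1 bp. Chromosome lengths were the furthest peak end in any list. Bins were 100 kb, and a bin was called when its summits, scaled to the mean of each list, differed at least 2-fold with at least 5 summits in both lists together. Cover of H3K9me3 or H3K27me3 had to differ by 20 points, and of H3K4me3 by 5, for a bin to count as different. Named regions are, per cell type, the 3 densest bins, the 3 called bins of at least 50 summits with the largest scaled ratio, the 3 longest one-sided runs, the 2 strongest one-sided peaks, the 2 widest peaks and the 2 longest stretches without H3K27ac. A stretch without H3K27ac had to hold a peak of another mark at least every 1 Mb. Coordinates are 1-based in the unnamed build of the lists. The gene table at hand is of Panubis1.0, and on 12 of the 20 autosomes its last gene and the last peak ended more than 5 Mb apart, so no peak was joined to a gene. With 1 list per cell type no p-value was computed. Intervals are 95% Wilson intervals and cover counting error only, and neighbouring peaks are not independent. The interval functions were tested on simulated data. The limit of 20 summits per bin, the bins chosen by other marks and the grouping of runs by length were chosen after seeing the data. The members, classes and measures were chosen with earlier results of these data known. Python 3.11.15, numpy 2.4.6, pandas 2.3.3 and SciPy 1.17.1 were used.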

Additional observations from a re-analysis of the deposited data

How the results depend on the processing

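No paired analysis was possible because each cell type has 1 peak list, with no values for single libraries, so that no library could be left out. A value was taken as unmoved within 1 SD over the 20 autosomes or, for percentages and for bins with more H3K9me3 in iPSC, within its 95% counting interval. Of 83 alternative values for 13 results, 32 were unmoved, 45 moved without a change of sign and 6 changed sign.

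With peaks of −log10 q of at least 5 and then 10 in both lists, the ratio of ESC to iPSC peaks was 2.04 and 2.54 and that of covered base pairs 2.16 and 2.57. The median width difference was 0 bp at 10. The ratio of median spacings, iPSC over ESC, was 1.97 and 2.45, and the Spearman's rho across bins 0.768 and 0.648. The surplus of iPSC summits in H3K4me3 was 13.3 and 15.6 points, and that of iPSC shared peaks 38.5 and 46.7 points. The median gap of one-sided to shared peaks turned to 100 and 1917 bp larger in ESC. Shared minus one-sided peaks with H3K4me3 gave 26.8 and 26.6 points in ESC, and 26.02 and 23.1 in iPSC. One-sided minus shared ESC peaks in iPSC H3K9me3 turned to -0.340 and -1.90 points, and in iPSC H3K27me3 gave -4.58 and -13.1. In bins with more H3K9me3 in iPSC, the ratio of summits was 9.65 and 9.21.

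With the ESC list shortened to the iPSC number, which makes the ratio of peaks 1 by construction, covered base pairs had a ratio of 1.19 and the median width difference was 19 bp. The spacing ratio turned to 0.968 and the gap difference to 83 bp. The surplus in H3K4me3 was 2.09 points and that of shared peaks 1.94 points. The H3K4me3 differences of shared peaks were 27.4 and 24.2 points, that of iPSC H3K27me3 was -3.30 points, and the ratio in bins with more H3K9me3 was 3.96.

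The rho was 0.777 in bins of 50 kb, 0.886 in bins of 1 Mb and 0.849 for covered base pairs. H3K4me3 of −log10 q of at least 5 gave a surplus of 9.86 points, and H3K4me3 differences of 24.7 in ESC and 24.1 in iPSC. The distance to H3K4me3 summits gave 9.41 points. The shared surplus was 35.7 points when 50% of a peak had to be overlapped, 28.2 points within 1 kb, 33.2 without chromosome 19 and 32.5 without chromosomes 10, 19 and 20. Leaving out those 3 autosomes, an alternative chosen after seeing the data, gave 0.161 points for iPSC H3K9me3 and -2.52 for iPSC H3K27me3. H3K9me3 and H3K27me3 of −log10 q of at least 2 gave 0.921 and -1.42. A limit of 40 points of H3K9me3 gave a ratio of 10.4, also chosen after seeing the data. The causes of these changes were not tested, and the depth that limits either list is unknown.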
